A study of Homo sapiens with 4 samples.

Results

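Oxidative phosphorylation, the process by which mitochondria turn electron flow into ATP, was examined through the genes of its protein subunits in slow-cycling breast cancer cells. Members were chosen by gene symbol: protein-coding genes named as subunits of complexes I to V (NDUFA, NDUFB, NDUFC, NDUFS, NDUFV, SDH, UQCR, COX4 to COX8, ATP5 and the mitochondrial MT-ND, MT-CO, MT-CYB and MT-ATP genes), without NDUFAF assembly factors. The symbols selected 101 of the 58735 genes in the table, 88 in the nuclear genome and 13 in the mitochondrial genome. By known role 93 are subunits or isoforms and 8 are related factors, copies or read-through genes. The symbol patterns miss COX4I1, COX4I2, CYC1 and NDUFAB1, which are subunits too, and these are given separately below.

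RNA was sequenced from MDA-MB-231, an established triple-negative breast cancer cell line, transduced with a doxycycline-inducible histone H2B-eGFP reporter that all 4 groups carry. Doxycycline at 5 μg/ml was given for 3 days, cells were stained with the Claret and Violet dyes, and all labels were chased for 12 days, per the labels' protocols. The slow-cycling groups named Claret, eGFP and Violet are the top 1% of cells for that retained label, and the group named Bulk was sorted without a fluorescence gate. Every group is a single library (n = 1), which allows no test between groups, and the intervals given cover counting error only.

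Groups follow the sample titles, which the columns of the tables share. The treatment field of the labels names another sort in every sample: the library titled Bulk is given there as Claret, Claret as eGFP, H2B-eGFP as Violet, and Violet as un-gated. MKI67, a proliferation marker, had 6778 reads in the library titled Bulk and 995, 689 and 915 reads in those titled Claret, eGFP and Violet. If that field is used instead, the nuclear members' median becomes 0.34, 0.13 and 0.09 for Claret, eGFP and Violet, so every direction against Bulk below rests on the titles. Summed reads were 15508179 to 16976909 per library. The 6 markers known of MDA-MB-231 (VIM, CD44, EGFR, KRT18, LGALS1, S100A4) were all detected in every library, and ESR1, PGR and CDH1, which this line lacks or holds at low levels, summed to 3 to 10 reads. The 6 markers of blood, endothelial, muscle and liver cells summed to 6.55 CPM (reads scaled to library size) in Bulk and to 9.25, 6.68 and 8.58 CPM in Claret, eGFP and Violet, with PTPRC at 0 reads in Bulk and Violet, CDH5 in eGFP and ALB in Violet. Their part in the results was not tested.

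Complexes I to IV form the respiratory chain in the inner mitochondrial membrane. Complex I takes electrons from NADH and complex II from succinate, complex III passes them to cytochrome c, complex IV reduces oxygen, and complex V, the ATP synthase, uses the resulting proton gradient. Complex II is wholly nuclear encoded, while the other complexes join nuclear subunits with subunits made from the small mitochondrial genome, whose transcripts are cut from long polycistronic precursors. Nuclear subunit genes are known targets of the factors NRF1, GABP (an ETS factor) and YY1.

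Sequences were therefore read at the promoters of the nuclear subunits. RefSeq promoter windows (GRCh38.p14, 250 bases before to 50 after the start) matched 64 of the 80 nuclear subunit genes. The NRF1 core GCATGCGC, searched on both strands, lay in at least 1 window of 14 of them, or 21.9%, against 6.43% of the 9939 kept protein-coding genes with a window and 3.68% of all 27305 genes. The ETS core CCGGAAG lay in 29.7% of the subunit genes, 22.3% of the kept protein-coding genes and 12.2% of all genes, and the YY1 core AAGATGGC in 18.8%, 6.54% and 3.52%. The YY1 core ends in the letters GC with which the NRF1 core begins, so matches of these motifs can overlap. Each stretch below is 30 bases before the start of a subunit gene, 5′ to 3′ on the gene's strand, with the NRF1 core or its reverse complement in capitals. The first 4 genes were lower than Bulk by at least 1.5-fold in at least 1 library and the last 4 were not.
NDUFS6, chr5:1801350-1801379, plus strand: ccagaagccgtGCGCATGCgttagcgctaa
NDUFA6, chr22:42090920-42090949, minus strand: tctgtagatgaGCATGCGCagcacccaccg
NDUFS7, chr19:1383823-1383852, plus strand: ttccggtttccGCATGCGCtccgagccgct
ATP5PF, chr21:25735156-25735185, minus strand: ccactcaaagaGCGCATGCgtacagagcaa
ATP5MC2, chr12:53676105-53676134, minus strand: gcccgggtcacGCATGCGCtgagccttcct
COX5B, chr2:97645915-97645944, plus strand: ggcagagctggGCATGCGCaatttccgccc
COX6A1, chr12:120437884-120437913, plus strand: ggagggcacacGCATGCGCacgaaggaaac
NDUFB4, chr3:120596168-120596197, plus strand: gagcacttcgcGCATGCGCatatcaccgag

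The core thus stood both in genes called lower and in genes that were not. The printed genes are a selection, so their even split is not the share called. SDHB, SDHD, NDUFA5, ATP5F1C and ATP5ME also hold the core and were not called. Of these, SDHB, SDHD and NDUFA5 lay further below Bulk in each slow-cycling library than the printed genes that were not called. Shares called among subunits with and without the core were not computed. Among kept subunits with a window, the 14 with the NRF1 core had a median log2 ratio to Bulk of -0.22 (Claret), -0.32 (eGFP) and -0.37 (Violet), and the 46 without it had -0.27, -0.26 and -0.35. Medians with and without the ETS core were -0.34 and -0.24 in Claret, -0.27 and -0.28 in eGFP, and -0.36 and -0.35 in Violet. For the YY1 core, held by 11 kept subunits, they were -0.30 and -0.22 in Claret, -0.42 and -0.25 in eGFP, and -0.63 and -0.34 in Violet. A match is a description of the letters and does not show binding.

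The question for the comparison with Bulk was how far the subunit transcripts differ between slow-cycling cells and cells sorted without a gate. Ratios are log2 ratios of TMM-scaled CPM, and a member is called higher or lower when it differs by at least 1.5-fold, a log2 ratio of 0.58. Genes with a mean of at least 1 CPM over the libraries were kept, 14585 in all and 93 of the members: 80 nuclear and all 13 mitochondrial. The 8 others had few or no reads: NDUFA7, the isoforms COX6A2, COX6B2, COX7A1 and COX8C, ATP5MGL, and the read-through genes ATP5MF-PTCD1 and NDUFC2-KCTD14. NDUFA7 is an accessory subunit of complex I and not a tissue isoform. Of its exon bases, 33.5% lie in another gene, so reads there could belong to either gene. COX6A2, COX8C and ATP5MGL had 0 reads in every library, which allows up to 0.177 to 0.193 CPM.

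Nuclear-encoded members were mostly a little lower in the slow-cycling libraries. In Claret, 57 of the 80 kept nuclear members lay below Bulk, with a median log2 ratio of -0.18. In eGFP 64 lay below, with a median of -0.25, and in Violet 70, with a median of -0.34. Kept protein-coding nuclear genes as a whole had a median of -0.04 in each comparison, and 52.7%, 52.7% and 52.1% of them lay below Bulk. The 3 comparisons share the Bulk library and are not independent. In bulk RNA, fewer cells with a transcript and less transcript per cell cannot be told apart.

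Few members were called. In Claret, 9 members were called lower, 8 of them nuclear, where 17.4% of all kept genes were lower, and 3 were called higher, where 21.4% of all kept genes were higher. In eGFP, 14 members were lower (18.6% of all kept genes) and 4 higher (22.0%). In Violet, 20 members were lower (17.2%) and 2 higher (22.4%). As a share of the 93 kept members the lower calls were 9.68%, 15.1% and 21.5%, and the higher calls 3.23%, 4.30% and 2.15%. Lower calls were thus below the background share in Claret and eGFP and near it in Violet, and higher calls were below it in each. In all, 26 members were called against Bulk in at least 1 library, 21 nuclear and 5 mitochondrial. The share of all kept genes called in at least 1 library was not computed, so this total has no background beside it. The 3 higher calls in Claret were MT-CO1, MT-CO2 and MT-ND6. With ratios corrected for gene length, 15 members are lower in Claret and 1 is higher. The shares of all kept genes under that correction were not computed, so these counts cannot be set against the shares above.

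**Figure D1:**
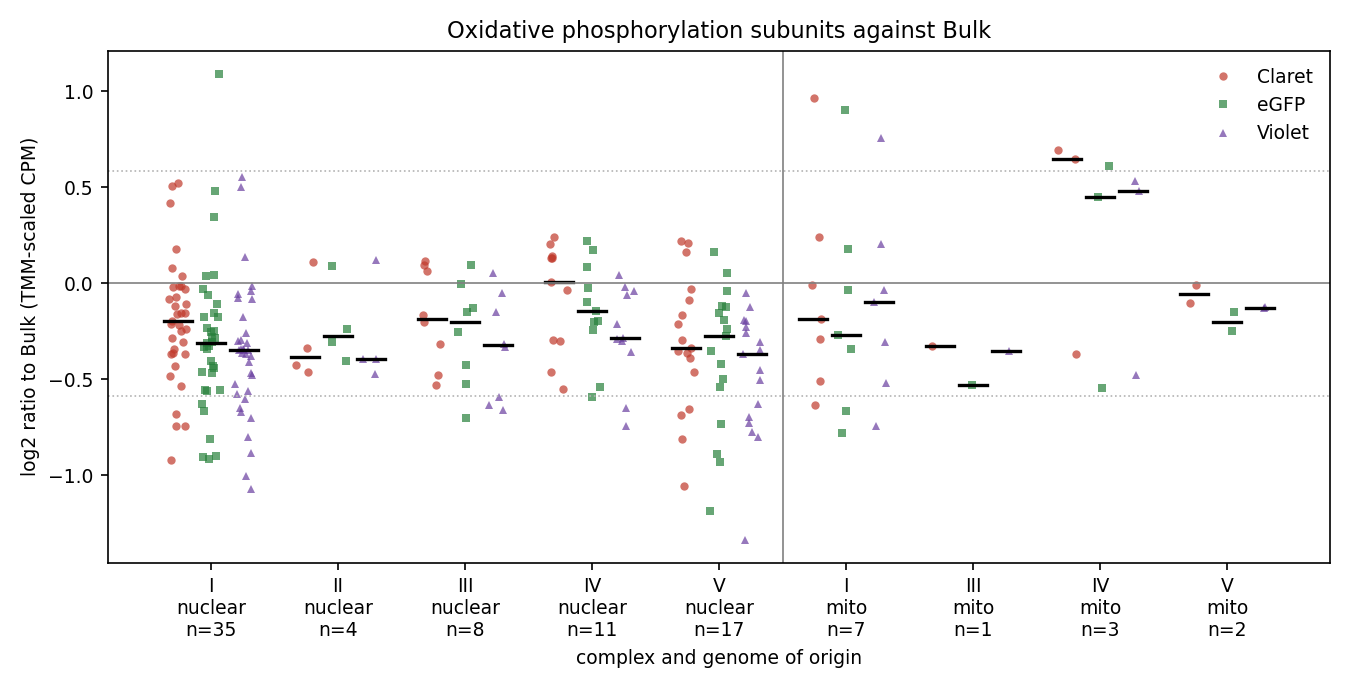
Log2 ratio to Bulk (y axis) of each kept subunit, by complex and genome of origin (x axis, with the number of subunits). Points are subunits in Claret, eGFP and Violet (1 library each), black bars are medians, and dotted lines mark 1.5-fold; nuclear medians run from 0.00 to -0.40, while mitochondrial subunits of complexes I and IV spread to both sides.

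Complex I, the largest, had 35 kept nuclear subunits, whose median log2 ratios were -0.20, -0.31 and -0.35. Its 7 nuclear core subunits, which carry the redox centres, had medians of -0.21, -0.41 and -0.36, and the 28 accessory subunits -0.18, -0.31 and -0.35. NDUFS3 (ENSG00000213619, chr11:47565336-47584562), a core subunit of the matrix arm, had 1308 reads in Bulk, against 744, 698 and 621 in Claret, eGFP and Violet. Bulk was the highest library and the others lay close together, and 22.4% of its exon bases lie in another gene, PTPMT1. Its log2 ratios were -0.92 (95% interval -1.05 to -0.79), -0.92 (-1.05 to -0.79) and -1.07 (-1.21 to -0.93).

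NDUFS6, an accessory subunit of the matrix arm and one of the genes with an NRF1 core printed above, had 1101 reads in Bulk, against 708, 592 and 547 in the slow-cycling libraries. Its log2 ratios were -0.74, -0.91 and -1.01. NDUFA6, an accessory subunit of the LYR protein family, had 924, 594, 499 and 529 reads, with ratios of -0.74, -0.90 and -0.80. NDUFA9, an accessory subunit near the ubiquinone site, had 212, 142, 121 and 114 reads, with ratios of -0.68, -0.81 and -0.88. In each of these genes Bulk was the highest library. Accessory subunits NDUFB3 (-0.53, -0.63 and -0.70), NDUFB2 (-0.49, -0.67 and -0.65) and NDUFC2 (-0.16, -0.43 and -0.60) and the core subunit NDUFS7 (-0.21, -0.47 and -0.67) were called lower in 1 or 2 libraries. The call of NDUFC2 in Violet is lost at -0.56 with library totals and at -0.53 on the log2(FPKM + 1) scale, on which NDUFS7 in Violet comes to -0.54 and NDUFA9 to -0.36, -0.42 and -0.46. NDUFB2 shares 35.9% of its exon bases with another gene and NDUFS7 49.1%, so reads there could belong to either gene.

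A few complex I genes stood higher than Bulk. NDUFV2, an iron-sulfur core subunit of the NADH-oxidising module, had only 46 reads in Bulk, against 72, 101 and 66 in Claret, eGFP and Violet. The eGFP library was the highest, at a log2 ratio of 1.09 (0.61 to 1.66), while the intervals in Claret (0.52, -0.02 to 1.10) and Violet (0.50, -0.04 to 1.10) held 0. NDUFV2 shares 28.4% of its exon bases with an overlapping gene. NDUFA13, an accessory subunit, had 126, 194, 178 and 186 reads. Its ratios were 0.51 (0.18 to 0.85), 0.48 (0.15 to 0.83) and 0.56 (0.23 to 0.90), and 21.0% of its exon bases lie in another gene. NDUFS4, an accessory subunit of the matrix arm, had 423, 610, 542 and 465 reads and ratios of 0.42, 0.34 and 0.14. The rest of complex I stayed within the fold. NDUFB8, an accessory subunit, came close to it in Violet, with 162, 141, 160 and 108 reads and ratios of -0.30, -0.03 and -0.58. However, 48.5% of the NDUFB8 exon bases lie in another gene. Among core subunits, NDUFS1, the large iron-sulfur protein of the NADH-oxidising module, had 2545, 2127, 1891 and 1976 reads and ratios of -0.37, -0.44 and -0.36. NDUFV1, which binds NADH, had 2265, 2068, 1725 and 1634 reads and ratios of -0.24, -0.41 and -0.47. NDUFS8 (-0.16, -0.15 and -0.35), an iron-sulfur subunit, stood closer to Bulk in Claret and eGFP. Accessory subunits NDUFA2 (-0.37, -0.56 and -0.30), NDUFA5 (-0.43, -0.56 and -0.34), NDUFA12 (-0.34, -0.46 and -0.41) and NDUFA8 (-0.22, -0.33 and -0.56) lay below Bulk by less than the fold. NDUFA10 (0.04, 0.05 and -0.05), NDUFB5 (-0.01, 0.04 and -0.08) and NDUFA11 (-0.08, -0.11 and -0.08) lay close to it. NDUFS5 had the highest level among complex I nuclear subunits by deposited FPKM (fragments per kilobase of gene length, scaled to library depth), at 183 in Bulk and 148, 143 and 123 in the others. NDUFAB1, which the symbol patterns miss, had 859, 709, 735 and 613 reads and ratios of -0.38, -0.24 and -0.48.

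In complex II, succinate dehydrogenase, no subunit was called in any comparison. SDHA, the flavoprotein, had ratios of -0.34, -0.24 and -0.47 in Claret, eGFP and Violet. SDHB, the iron-sulfur subunit, had -0.43, -0.31 and -0.39, and SDHD, a membrane anchor, had -0.46, -0.41 and -0.40. SDHC, the other anchor, had 1359 reads in Bulk, against 1583, 1461 and 1476 in the slow-cycling libraries, with ratios of 0.11, 0.09 and 0.12. SDHC was thus the complex II gene slightly above Bulk in each library.

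Complex III nuclear subunits had medians of -0.18, -0.20 and -0.32 over 8 genes. UQCRQ, a small subunit near cytochrome b, had 1665, 1289, 1032 and 1102 reads and ratios of -0.48, -0.70 and -0.59, with Bulk again highest. Its call in Violet is lost at -0.55 when libraries are scaled by their totals. UQCR11 (-0.53, -0.42 and -0.66) and UQCR10 (-0.32, -0.53 and -0.63) were called lower in Violet. The core protein genes UQCRC1 (-0.17, -0.25 and -0.31) and UQCRC2 (0.10, -0.01 and -0.15) and the Rieske protein gene UQCRFS1 (-0.20, -0.15 and -0.33) were not called. UQCRB had ratios of 0.11, 0.10 and 0.05. UQCRH, the acidic hinge protein, had 0.06, -0.13 and -0.05 and was highest by mean FPKM among the nuclear members of complex III. CYC1, cytochrome c1, which the symbol patterns miss, had 4507, 3134, 2727 and 2440 reads and ratios of -0.63, -0.74 and -0.88.

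Complex IV, cytochrome c oxidase, was the complex whose nuclear subunits lay nearest Bulk in Claret. The 11 kept nuclear subunits had medians of 0.00, -0.14 and -0.28. COX8A, a small ubiquitous subunit, had 1433, 1122, 958 and 856 reads and ratios of -0.46, -0.59 and -0.74. Its call in eGFP is lost at -0.57 with library totals, and 34.5% of its exon bases lie in another gene. COX7B had 862, 633, 597 and 548 reads and ratios of -0.55, -0.54 and -0.65. COX7C (0.21, 0.22 and -0.04), COX7A2 (0.24, 0.17 and -0.06) and COX5B (0.13, 0.09 and 0.04) lay at or above Bulk in Claret and eGFP. COX6C had 0.14, -0.10 and -0.02, COX6A1 0.13, -0.02 and -0.21, COX6B1 0.00, -0.14 and -0.29, and NDUFA4, a complex IV subunit despite its name, -0.03, -0.20 and -0.28. COX4I1, outside the symbol patterns, had 3865, 4078, 3644 and 3514 reads and ratios of -0.03, -0.10 and -0.14.

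Tissue isoforms of complex IV were weakly expressed with 1 exception. The heart and muscle isoform COX7A1 had 11, 8, 5 and 8 reads, and COX6B2, known from testis, had 3, 10, 6 and 17. COX4I2, an isoform outside the symbol patterns, had 0 reads in every library. COX7B2, likewise known from testis, had 394 reads in Bulk, against 344, 347 and 319 in Claret, eGFP and Violet. By FPKM, COX7B2 made up 63.1% of the COX7B and COX7B2 sum in Bulk and 67.1%, 68.5% and 68.6% in the slow-cycling libraries. FPKM divides by the length of all annotated exons of a gene, so this share depends on the gene models. The ratios of COX7B2 were -0.30, -0.19 and -0.30.

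Complex V nuclear subunits had medians of -0.34, -0.27 and -0.37, with 14, 15 and 17 of 17 below Bulk. The member furthest below Bulk, by the mean of its ratios, was ATP5MC1, a gene of its c ring, the rotor in the membrane. ATP5MC1, ATP5MC2 and ATP5MC3 encode the same mature subunit c behind different import sequences. ATP5MC1 (ENSG00000159199, chr17:48892765-48895871) had 1116 reads in Bulk, against 578, 494 and 441 in Claret, eGFP and Violet. Bulk stood well above the other libraries, and the log2 ratios were -1.05 (-1.20 to -0.91), -1.19 (-1.34 to -1.03) and -1.33 (-1.50 to -1.18). ATP5MC3 had 2765, 1850, 1677 and 1615 reads, with ratios of -0.69, -0.73 and -0.77.

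ATP5MC2 did not follow the other c-ring genes. It had 1643 reads in Bulk, against 2050, 1857 and 1583 in the others, with ratios of 0.21, 0.16 and -0.05. By FPKM, ATP5MC1 made up 34.2% of the sum of the 3 genes in Bulk, but 21.9%, 21.0% and 21.0% of it in the slow-cycling libraries. The annotated lengths of ATP5MC1, ATP5MC2 and ATP5MC3 are 2615, 3991 and 6780 bases, so these shares also depend on the gene models. Reads of the 3 genes together gave ratios of -0.41 (-0.47 to -0.35), -0.47 (-0.53 to -0.41) and -0.60 (-0.66 to -0.54).

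Other complex V genes lay in between or nearer Bulk. ATP5MF, subunit f of the membrane part, had 1370, 842, 723 and 784 reads and ratios of -0.81, -0.93 and -0.80. ATP5PB, subunit b of the peripheral stalk, had 4205, 2875, 2291 and 2536 reads and ratios of -0.66, -0.89 and -0.73. ATP5PO (-0.30, -0.54 and -0.70) and ATP5PF (-0.46, -0.42 and -0.63), also of the peripheral stalk, were called in Violet, where ATP5PF drops to -0.58 and loses its call with library totals, and 25.4% of the ATP5PO exon bases lie in another gene. No gene of the catalytic head and central stalk was called. ATP5F1A, the alpha subunit, had 6822, 5707, 5383 and 4988 reads and ratios of -0.37, -0.35 and -0.45. The central stalk genes ATP5F1C (-0.09, -0.19 and -0.12), ATP5F1D (-0.16, -0.12 and -0.35) and ATP5F1E (-0.35, -0.24 and -0.26) also lay below Bulk. In the membrane part and stalk, ATP5MPL (0.22, -0.12 and -0.20) and ATP5PD (0.16, -0.16 and -0.23) lay above Bulk in Claret and below it in eGFP and Violet, and ATP5MG had -0.34, -0.27 and -0.37. ATP5F1B, the catalytic beta subunit and the most abundant nuclear member by FPKM, was at 335 in Bulk and 253, 233 and 229 in the slow-cycling libraries.

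**Figure D2:**
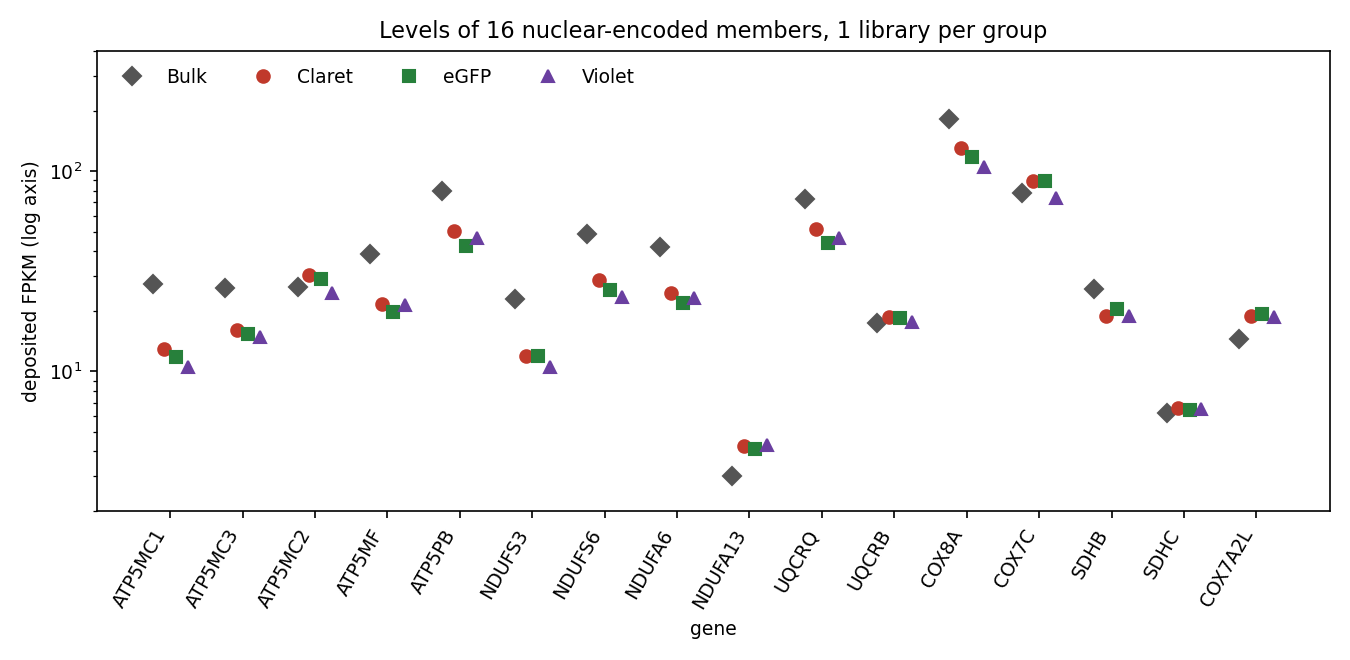
Deposited FPKM (y axis, log scale) of 16 nuclear-encoded members (x axis) in Bulk, Claret, eGFP and Violet, 1 point per library. Bulk stands above the other libraries for ATP5MC1 (27.5 against 13.0, 11.8 and 10.5) and not for ATP5MC2 (26.5 against 30.3, 29.1 and 24.7).

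The kept members that are not subunits numbered 5. COX7A2L, a factor in the assembly of respiratory supercomplexes, had 1266 reads in Bulk, against 1799, 1728 and 1684 in Claret, eGFP and Violet. Its ratios were 0.40 (0.29 to 0.50), 0.44 (0.33 to 0.54) and 0.41 (0.31 to 0.52), with all slow-cycling libraries above Bulk. ATP5IF1, the inhibitor of ATP synthase, had 0.10, -0.02 and 0.05, ATP5S had 0.19, 0.09 and 0.27, and UQCRHL, a near copy of UQCRH, had -0.15, 0.16 and -0.22. NDUFA4L2, a homologue of NDUFA4 known as a hypoxia target, had 21, 26, 39 and 69 reads and ratios of 0.18, 0.82 and 1.63 (0.99 to 2.50), highest in Violet. On the log2(FPKM + 1) scale its eGFP ratio is 0.34, below the fold used here.

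The 13 mitochondrially encoded members lay on both sides of Bulk. Their medians were -0.10, -0.25 and -0.12, with 4 genes above and 9 below Bulk in each comparison. With ratios corrected for gene length the medians are -0.28, -0.42 and -0.26. They held 3.996% of all reads in Bulk, against 4.72%, 4.29% and 4.44% in Claret, eGFP and Violet, while the nuclear members held 0.660%, 0.577%, 0.551% and 0.534%.

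**Figure D3:**
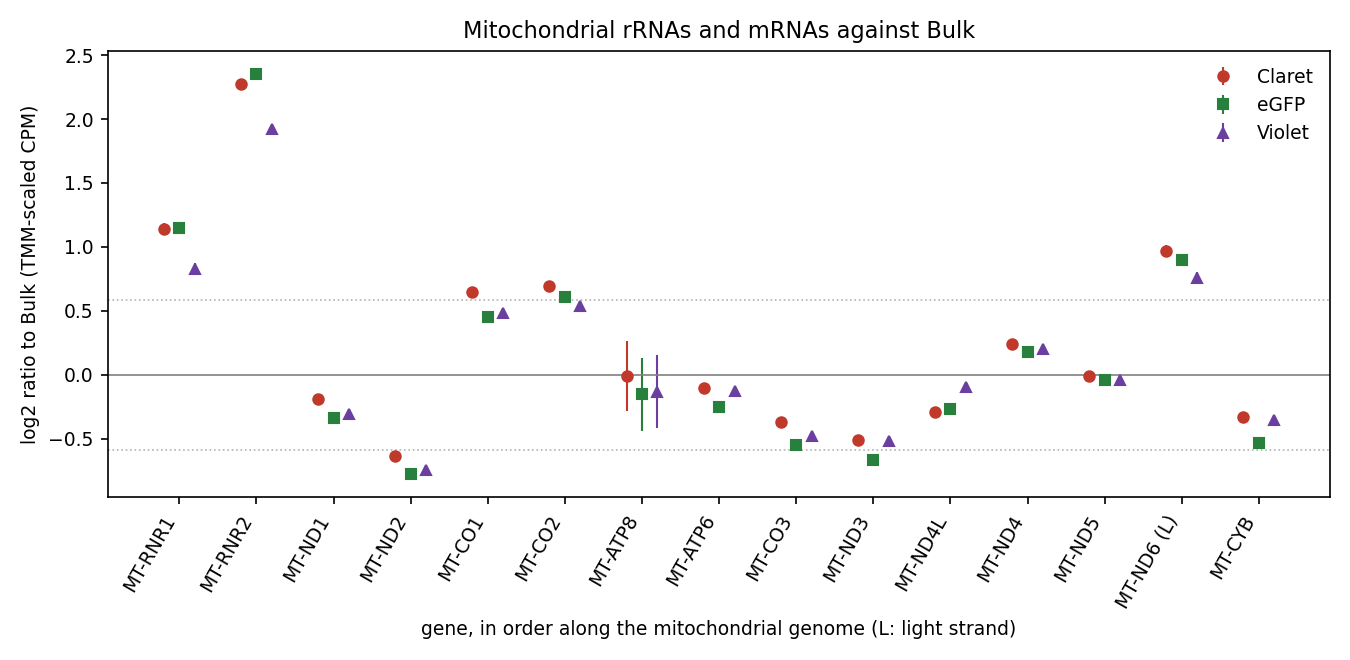
Log2 ratio to Bulk (y axis) of the mitochondrial rRNAs and mRNAs in gene order (x axis), with 95% intervals of counting error, in Claret, eGFP and Violet. MT-RNR2, MT-ND6, MT-CO1 and MT-CO2 stand above 0 and MT-ND2, MT-ND3 and MT-CO3 below it.

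MT-CO1 (ENSG00000198804, chrMT:5904-7445), the catalytic subunit of complex IV, had 175876 reads in Bulk, against 297230, 242151 and 245081 in Claret, eGFP and Violet. Bulk was the lowest library. Its ratios were 0.65, 0.45 and 0.48, and its share of mitochondrial mRNA reads was 27.4% in Bulk and 37.1%, 35.6% and 35.6% in the others. MT-CO2, which takes electrons from cytochrome c, had 61602, 107380, 94738 and 89202 reads and ratios of 0.69, 0.61 and 0.54. The third mitochondrial subunit, MT-CO3, lay on the other side of Bulk, with 80107, 66933, 55370 and 57591 reads and ratios of -0.37, -0.55 and -0.47. The ratio of MT-CO1 to MT-CO3 reads was thus 2.20 in Bulk and 4.44, 4.37 and 4.26 in the slow-cycling libraries. With a correction for gene length the call of MT-CO1 in Claret is lost at 0.53 and that of MT-CO2 at 0.52 in Claret and 0.44 in eGFP. With DESeq2 size factors MT-CO2 in eGFP comes to 0.58, just under the fold.

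Complex I genes also diverged. MT-ND6 (chrMT:14149-14673), the mRNA gene on the light strand, had 5960 reads in Bulk, against 12560, 11227 and 10070 in Claret, eGFP and Violet. Bulk was lowest, and the ratios were 0.97 (0.92 to 1.01), 0.90 (0.86 to 0.95) and 0.76 (0.71 to 0.80), the highest among the mitochondrial mRNAs. The library kit named in the labels does not mark strand, so reads of MT-ND6 and of RNA from the opposite strand cannot be told apart. MT-ND2 had 54527 reads in Bulk, against 37902, 32087 and 32604 in the others, with ratios of -0.63, -0.78 and -0.74. MT-ND3 had ratios of -0.51, -0.67 and -0.52. With a GC correction MT-ND2 in Claret and MT-ND3 in eGFP come to -0.58 and lose their calls. MT-ND4 lay above Bulk at 0.24, 0.18 and 0.20. Its neighbour MT-ND4L, whose last 7 bases overlap MT-ND4, lay below Bulk in each library, with ratios given below. Reads of MT-ND4 over those of MT-ND4L came to 4.75 for Bulk, 6.89 for Claret, 6.47 for eGFP and 5.86 for Violet. Whether the ratios of these overlapping genes follow separate transcripts was not tested.

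The remaining mitochondrial mRNAs lay at or below Bulk. MT-ND1 had ratios of -0.19, -0.34 and -0.31, MT-ND4L -0.29, -0.27 and -0.10, and MT-ND5 -0.01, -0.04 and -0.04. MT-CYB, the cytochrome b of complex III, had -0.33, -0.53 and -0.35. MT-ATP6, the proton channel subunit of complex V, had -0.10, -0.25 and -0.12, and MT-ATP8 had -0.01, -0.15 and -0.13 from 195 to 230 reads. MT-ATP8 and MT-ATP6 are encoded on 1 mRNA and overlap by 46 bases at chrMT:8527-8572, or 22.2% of MT-ATP8. By FPKM, however, MT-ATP8 stood at 66.8 in Bulk, against 4934 for MT-ATP6, and the cause of this gap was not tested. The overlap, where a read cannot be given to 1 of these genes, is shown as in the GENCODE 29 transcript, with the MT-ATP6 start codon in capitals.
MT-ATP8 and MT-ATP6 overlap: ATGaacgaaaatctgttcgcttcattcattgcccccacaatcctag

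The mitochondrial rRNAs were higher than Bulk in each slow-cycling library, whereas most mitochondrial mRNAs were not. MT-RNR1 had log2 ratios of 1.14, 1.15 and 0.82 and MT-RNR2 2.27, 2.35 and 1.92, and both rRNAs held 0.166% of reads in Bulk, against 0.721%, 0.759% and 0.575% in Claret, eGFP and Violet. Its part in the mRNA ratios was not tested. Parts of the mitochondrial genes also exist as nuclear copies: 66.7% of the 31-base words of MT-CO1, 56.9% of MT-ND2, 50.5% of MT-CO2 and 30.7% of MT-ND6 occur in other genes. Summed with its copy MTCO1P12 on chromosome 1, MT-CO1 had ratios of 0.65, 0.45 and 0.48, and MT-ND2 summed with MTND2P28 had -0.66, -0.79 and -0.75. How reads with several matches were counted is not given in the sources used here.

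Fewer members passed the fold between slow-cycling libraries. Among the 93 kept members 1 differed by at least 1.5-fold between Claret and eGFP (5.20% of all kept genes), 1 between Claret and Violet (5.03%) and 2 between eGFP and Violet (5.79%). NDUFA4L2 was the member past the fold in each pair, with log2 ratios of -0.64 (-1.46 to 0.07), -1.44 (-2.23 to -0.85) and -0.81 (-1.44 to -0.25), and NDUFV2 was the other for eGFP against Violet at 0.59. The nuclear members' median was 0.09 between Claret and eGFP, 0.13 between Claret and Violet, and 0.09 between eGFP and Violet, so Violet was lowest and Claret highest by small amounts. All kept genes had medians of 0.00 in these pairs. Mitochondrial members had medians of 0.14, 0.11 and -0.03.

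Related gene lists were compared in the same way. Of 13 genes of the tricarboxylic acid cycle, which supplies the NADH and succinate, 5, 7 and 7 were called lower in Claret, eGFP and Violet and none higher, with medians of -0.51, -0.63 and -0.59. Lower calls were 38.5%, 53.8% and 53.8% of this list, where 17.4%, 18.6% and 17.2% of all kept genes were lower. Examples were IDH3A (-0.91, -0.80 and -0.90), FH (-0.72, -0.89 and -0.94) and the citrate synthase gene CS (-0.66, -0.63 and -0.72). Of 27 genes of mitochondrial genome expression and maintenance, 11, 13 and 14 were lower and 1 higher each time, with medians of -0.47, -0.54 and -0.60. The lower calls made up 40.7%, 48.1% and 51.9% of this list, against the same shares of all kept genes, and the higher call 3.70%, where 21.4%, 22.0% and 22.4% of all kept genes were higher. TFAM, which packages mitochondrial DNA and helps start transcription, had -0.73, -0.82 and -0.68, the mRNA-stabilising LRPPRC -0.69, -0.77 and -0.66, and the RNA-degrading PNPT1 -1.02, -0.89 and -1.26. TFB1M, which methylates mitochondrial 12S rRNA, was the higher gene at 0.95, 1.09 and 0.70.

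**Figure D4:**
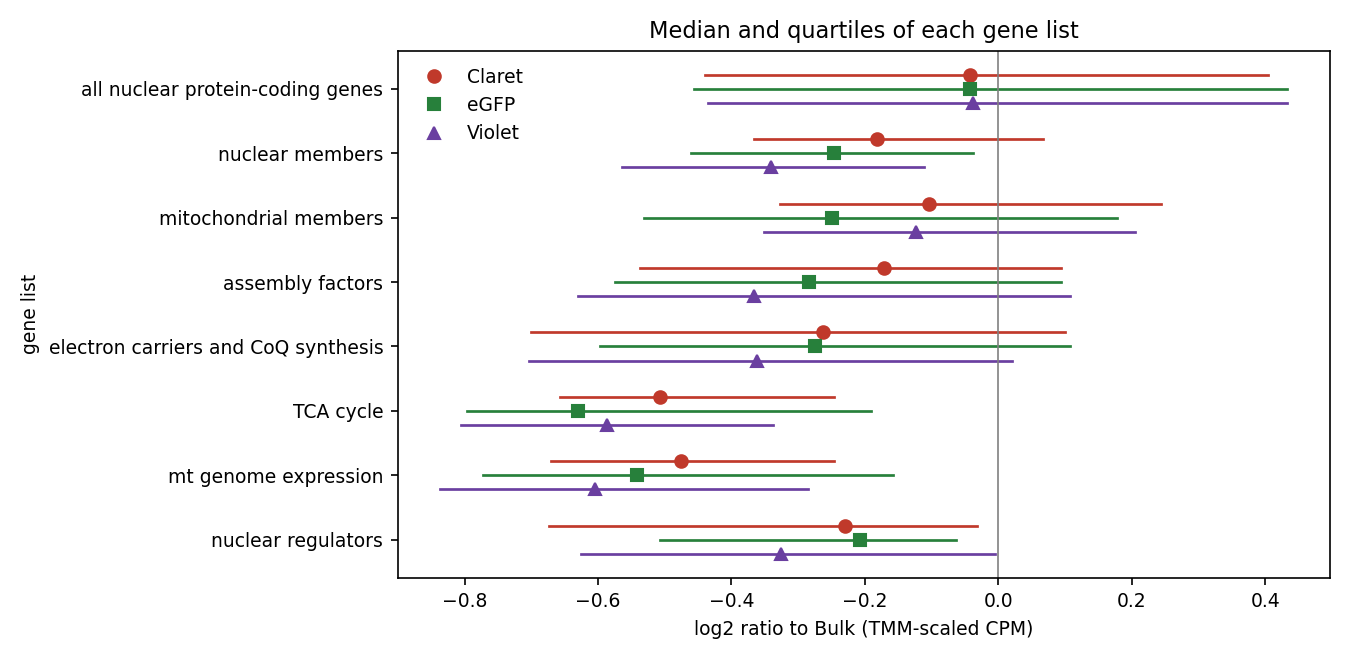
Median (points) and quartiles (lines) of the log2 ratio to Bulk (x axis) of each gene list (y axis) in Claret, eGFP and Violet. The tricarboxylic acid cycle and mitochondrial genome expression lists have medians from -0.47 to -0.63, and the nuclear members from -0.18 to -0.34.

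Assembly factors, which build the complexes, had medians of -0.17, -0.28 and -0.37 over 48 kept genes, with 8, 12 and 15 called lower and 5, 3 and 4 higher. Lower calls were thus 16.7%, 25% and 31.2% of these genes, near the 17.4% of all kept genes in Claret and above the 18.6% and 17.2% in eGFP and Violet. Higher calls were 10.4%, 6.25% and 8.33%, below the 21.4%, 22.0% and 22.4% of all kept genes. The copper chaperone COX17 had -0.85, -0.95 and -1.19, while COA1 had 0.82, 0.65 and 0.91 and COX19 0.82, 0.81 and 0.80. Among electron carriers, cytochrome c (CYCS) had 3651 reads in Bulk, against 1759, 1459 and 1307 in the others, with ratios of -1.16, -1.33 and -1.48. PDSS1, of coenzyme Q synthesis, had -1.36, -1.93 and -1.79 and COQ5 1.20, 1.05 and 0.96. The whole list of 14 electron carrier and coenzyme Q synthesis genes had medians of -0.26, -0.28 and -0.36. Of these genes 4, 4 and 5 were called lower and 1, 1 and 2 higher. Lower calls were 28.6%, 28.6% and 35.7% of the list, where 17.4%, 18.6% and 17.2% of all kept genes were lower. Higher calls were 7.14%, 7.14% and 14.3%, below the 21.4%, 22.0% and 22.4% of all kept genes.

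Of 8 nuclear regulators, 3, 2 and 2 were called lower and none higher. Lower calls were 37.5%, 25% and 25% of this short list, where 17.4%, 18.6% and 17.2% of all kept genes were lower and 21.4%, 22.0% and 22.4% higher. GABPB1, the beta partner of GABP, had 506 reads in Bulk, against 264, 212 and 235 in the others, with ratios of -1.04, -1.26 and -1.10, and GABPA, the DNA-binding partner, had 0.23, 0.25 and 0.38. The coactivator genes PPARGC1B (-0.81, -0.59 and -0.82) and PPRC1 (-0.63, -0.48 and -0.56) lay below Bulk, and PPARGC1A had 92 to 120 reads and ratios of -0.11, -0.23 and 0.16. NRF1 had -0.27, -0.13 and -0.47, YY1 -0.18, -0.19 and -0.18, and ESRRA 0.19, 0.15 and -0.06.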

How the data were processed

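Read counts per gene for 4 MDA-MB-231 libraries (Bulk, Claret, eGFP, Violet; 1 each) and FPKM were deposited by the authors. The counts are whole-number and not normalized, per the file headers and the values. HISAT2 2.0.5 and featureCounts 1.5.0-p3 are named in the submitters' processing notes. Gene coordinates equal GENCODE 29 (GRCh38) for 58724 of 58735 genes. From the counts, TMM factors (edgeR 4.0.16, R 4.3.3) and log2 ratios with a prior count of 2 were computed for genes with a mean of at least 1 CPM, with 95% intervals taken from the exact binomial (Clopper-Pearson) limits on each pair of read counts, tested on simulated data. No test was run, because each group holds 1 library; intervals and the floor of 3 reads cover counting error only. The members, lists and thresholds were chosen with earlier results of these data known. By rule, named genes are the mitochondrial members, members past 1.5-fold, isoforms with counterparts and SDH genes. The rule adds the highest and lowest of each complex in ratio and FPKM, and those widest between slow-cycling libraries. Of other lists it takes the regulators and all genes past 1.5-fold. Only some of those list genes past 1.5-fold are named, as examples, and the counts and medians hold the rest. Further members (such as NDUFS1, NDUFA13, UQCRC1, COX6C and ATP5F1A) were named after their values were seen, to describe the rest of each complex. Some genes that share exon bases or 31-base words with others are uncertain. Alternatives covered scaling (DESeq2 1.42.0 size factors included), filters, prior count, FPKM as log2(FPKM + 1), GC, length, shared sequence, the fold and the treatment field. Members not named are included in the counts and medians; the values of 1 of them are not reported here.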

Additional observations from a re-analysis of the deposited data

Results flagged for a closer look

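Reads in the mitochondrial tRNA genes MT-TN, MT-TC and MT-TP, all on the light strand like MT-ND6 and outside the members, were above Bulk in every slow-cycling library. MT-TN had 1307 reads in Bulk, against 3526, 3375 and 2861 in Claret, eGFP and Violet, with log2 ratios of 1.32, 1.35 and 1.13. MT-TC had 946 reads in Bulk and ratios of 0.61, 0.78 and 0.64. MT-TP had 339 reads in Bulk, against 993, 1092 and 808 in the others, with ratios of 1.44, 1.67 and 1.25. MT-TY, also on the light strand, lay near Bulk at 0.06, -0.03 and -0.18. The kit does not mark strand, so the strand of these reads is unknown.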

How the results depend on the processing

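No paired analysis was possible because each group holds 1 library, and no replicate could be left out. Under every alternative that used the titles the nuclear medians stayed within the bounds their members' counting intervals give. These bounds are the medians of the single-gene lower and upper limits. They are not an interval of the median itself, so staying within them is a loose check. Groups from the treatment field moved them to 0.34 (Claret), 0.13 (eGFP) and 0.09 (Violet) and the mitochondrial medians to 0.12, 0.11 and -0.03, and gave 20, 0 and 1 members higher and 2, 1 and 1 lower. In Claret, eGFP and Violet under that field ATP5MC1 was 1.33, 0.28 and 0.15, ATP5MC3 0.77, 0.09 and 0.04, NDUFS3 1.07, 0.15 and 0.15 and NDUFS6 1.01, 0.26 and 0.10. In Claret and eGFP NDUFA6 was 0.80 and 0.06 and MT-ND2 0.74 and 0.11. In Claret MT-ND6 was -0.76, MT-CO1 -0.48 and MT-CO2 -0.54. In eGFP MT-ND3 was 0.01 and UQCRQ 0.12. In eGFP and Violet COX8A was 0.28 and 0.15, NDUFA4L2 -1.44 and -0.81 and NDUFB3 0.16 and 0.07. In Claret, eGFP and Violet NDUFA9 was 0.88, 0.20 and 0.07. In Claret ATP5MF was 0.80, in Claret and eGFP ATP5PB was 0.73 and 0.07, and in eGFP NDUFB2 was 0.16. In Violet NDUFC2 was 0.17, NDUFS7 0.21, UQCR10 0.11, UQCR11 0.24, COX7B 0.11, ATP5PO 0.16 and ATP5PF 0.21.

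The mitochondrial medians have narrow counting bounds. Library totals gave -0.08 in Claret and -0.22 in eGFP, GC correction -0.07 and -0.20, and length correction -0.28, -0.42 and -0.26 in Claret, eGFP and Violet. DESeq2 size factors and log2(FPKM + 1) gave -0.17 in Violet. Without members sharing sequence the Claret median was -0.29. Length correction left 1 member higher and 15 lower in Claret. Without members sharing sequence 0, 1 and 1 were higher. A filter at 10 CPM left 2 higher in eGFP and 1 in Violet, and log2(FPKM + 1) left 2 in eGFP. At 2-fold, 0, 1 and 1 members were higher and 1, 1 and 3 lower. Nuclear-only totals, no filter and a prior count of 0.5 moved no median or count past its bounds. The cause of these moves was not tested. Shares of all kept genes were not recomputed under any alternative, the treatment field included, so these member counts have no matching background. Low depth limits NDUFV2, NDUFA4L2 and the isoforms.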

Other observations

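Reads in the heavy-strand tRNA gene MT-TH were below Bulk, with 363 reads in Bulk, against 90, 55 and 69 in Claret, eGFP and Violet and log2 ratios of -2.09, -2.69 and -2.36. MT-TG had 117, 43, 74 and 57 reads and MT-TI 30, 11, 19 and 14. The nuclear copy MTND2P28 had ratios of -0.91, -0.87 and -0.82, MTCO1P12 0.94, 0.61 and 0.71, and MTATP6P1 -0.07, -0.25 and -0.09. The complex IV assembly gene COA4 had -0.60, -0.64 and -1.02, and the assembly gene SDHAF4 of complex II had 0.69, 0.42 and 0.44.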
